A study of Mus musculus with 8 samples.

Results

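The urea cycle and the breakdown of amino acids were followed in livers that lacked both liver X receptors through 39 genes, picked by the known role of their enzymes. All 39 were found by symbol among the 25010 genes of the deposited table, and 38 of them averaged at least 10 normalized counts, the minimum for testing. The exception was Phgdh. RNA-Seq libraries were made from left liver lobes of 2 wild-type (WT) mice and 2 mice without LXRα and LXRβ (LXRDKO), as 2 replicate libraries per genotype. All mice were on a C57BL/6 background and were killed at 8 weeks of age after a fast of 4 to 6 h. The LXRDKO mice lacked both receptors in the whole body and not in hepatocytes alone. Whole tissue was measured, in which fewer cells of a type and less RNA per cell cannot be told apart. The labels call the libraries replicates without saying more of their origin, so P values rest on the spread between these libraries. In the limma test that spread is moderated toward that of other genes of similar level.

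The liver is the main site where amino groups taken from amino acids are turned into urea. Glutamate dehydrogenase and glutaminase release ammonia in mitochondria, carbamoyl phosphate synthetase captures it, and a cycle of ornithine, citrulline, argininosuccinate and arginine carries it to urea. The carbon skeletons are broken down by separate routes for each amino acid, and many of these genes are known to be induced by fasting hormones and to be expressed in graded fashion between the portal and the central vein. LXRα and LXRβ are nuclear receptors that are activated by oxysterols and are best known for their control of cholesterol and fatty acid metabolism in the liver.

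The libraries held from 55772659 to 72842744 reads assigned to genes. The deleted genes were lower in both LXRDKO livers, with log2 fold changes of −1.65 for Nr1h3 and −1.66 for Nr1h2 (adjusted P = 0.0147 each, limma). The 8 hepatocyte markers examined had a median log2 fold change of −0.06, and their summed level was 6763529 and 7776496 normalized counts in WT, against 6977685 and 6314792 in LXRDKO. Alb alone made up 4940806 and 5959085 of these counts in WT, and 5214024 and 4644569 in LXRDKO. Of the 8 markers 2 had a positive log2 fold change, 1 of them Hnf4a (0.60). Markers of other cells moved with genotype. Of 10 macrophage and Kupffer cell markers 8 were lower in LXRDKO, with summed levels of 15300 and 17418 normalized counts in WT, against 11055 and 6496 in LXRDKO, and Timd4 was at 0 in 1 LXRDKO liver. However, 4 of the 10 (Csf1r, C1qa, C1qb and C1qc) overlapped between genotypes. Much of the fall in the sum lay in Clec4f (means of 3339 in WT and 454 in LXRDKO) and Cd5l (3036 and 12). Of 8 endothelial markers 7 were lower, and the sums were 14631 and 13424 in WT against 11434 and 8980 in LXRDKO. However, 3 of these 8 (Stab1, Stab2 and Lyve1) overlapped between genotypes. Much of the fall in this sum lay in Kdr (means of 2306 in WT and 1025 in LXRDKO) and Cdh5 (1447 and 596). The 8 stellate cell markers and the 6 cholangiocyte markers tested all had positive log2 fold changes. However, 4 of the 8 stellate cell markers overlapped between genotypes, and Col3a1 had a slightly lower mean count in LXRDKO (2638, against 2680 in WT). Without WT replicate 1, 6 of the 8 stellate cell markers had a positive log2 fold change. Of 8 lymphocyte and neutrophil markers tested 6 were lower, although their sums of 538 and 873 in WT and 1009 and 583 in LXRDKO overlapped, and the pancreatic acinar markers summed to at most 28.5 normalized counts. All 5 erythroid markers tested overlapped between genotypes, and their median log2 fold change of 0.25 came to −0.48 without WT replicate 1. The WT livers differed in their pericentral hepatocyte markers, of which all 11 were lower in WT replicate 2 than in WT replicate 1, by a median of 0.69 on the log2 scale. The 11 periportal markers had a median log2 fold change of 0.13. Across the genotypes the pericentral list had a median log2 fold change of 0.47, and this median came to 0.01 without WT replicate 2 but to 0.75 without WT replicate 1.

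The genes of the urea cycle and amino acid breakdown differed in both directions, with a typical size like that of all genes tested. Their median absolute log2 fold change was 0.174, against 0.173 over all genes tested. With sign kept, their median log2 fold change was 0.02, against −0.0046 over all 15578 genes tested, and the values ran from −0.42 for Amdhd1 to 0.81 for Asl. With an adjusted P value under 0.05 as the limit, none of the 38 genes was called by limma, which called 0.135% of all genes tested as higher, 0.186% as lower and 0.321% in either direction, and none was called by edgeR on the recovered reads, which called 0.315%. DESeq2 on the recovered reads called 2, Asl and Gpt2, both higher in LXRDKO, where 1.56% of all genes with an adjusted P value were called higher, 2.03% lower and 3.59% in either direction. Without adjustment, 9 genes had a limma P value under 0.05, compared with 13.3% of all genes tested. Of these, 6 (Gpt, Gpt2, Nags, Asl, Aass and Kynu) were higher in LXRDKO, against 5.77% of all genes tested, and 3 (Amdhd1, Hibch and Ido2) were lower, against 7.5%. The LXRDKO pair was entirely above the WT pair for 15 of the 38 genes (21.7% of all genes tested did so) and below both for 9 (23% of all genes tested). In 36 of the 38 genes the 95% confidence interval of the log2 fold change stayed within 1 of 0, that is, under a doubling or halving, and this held for 68.5% of all genes tested. The remaining 2 were Asl and Psat1.

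**Figure D1:**
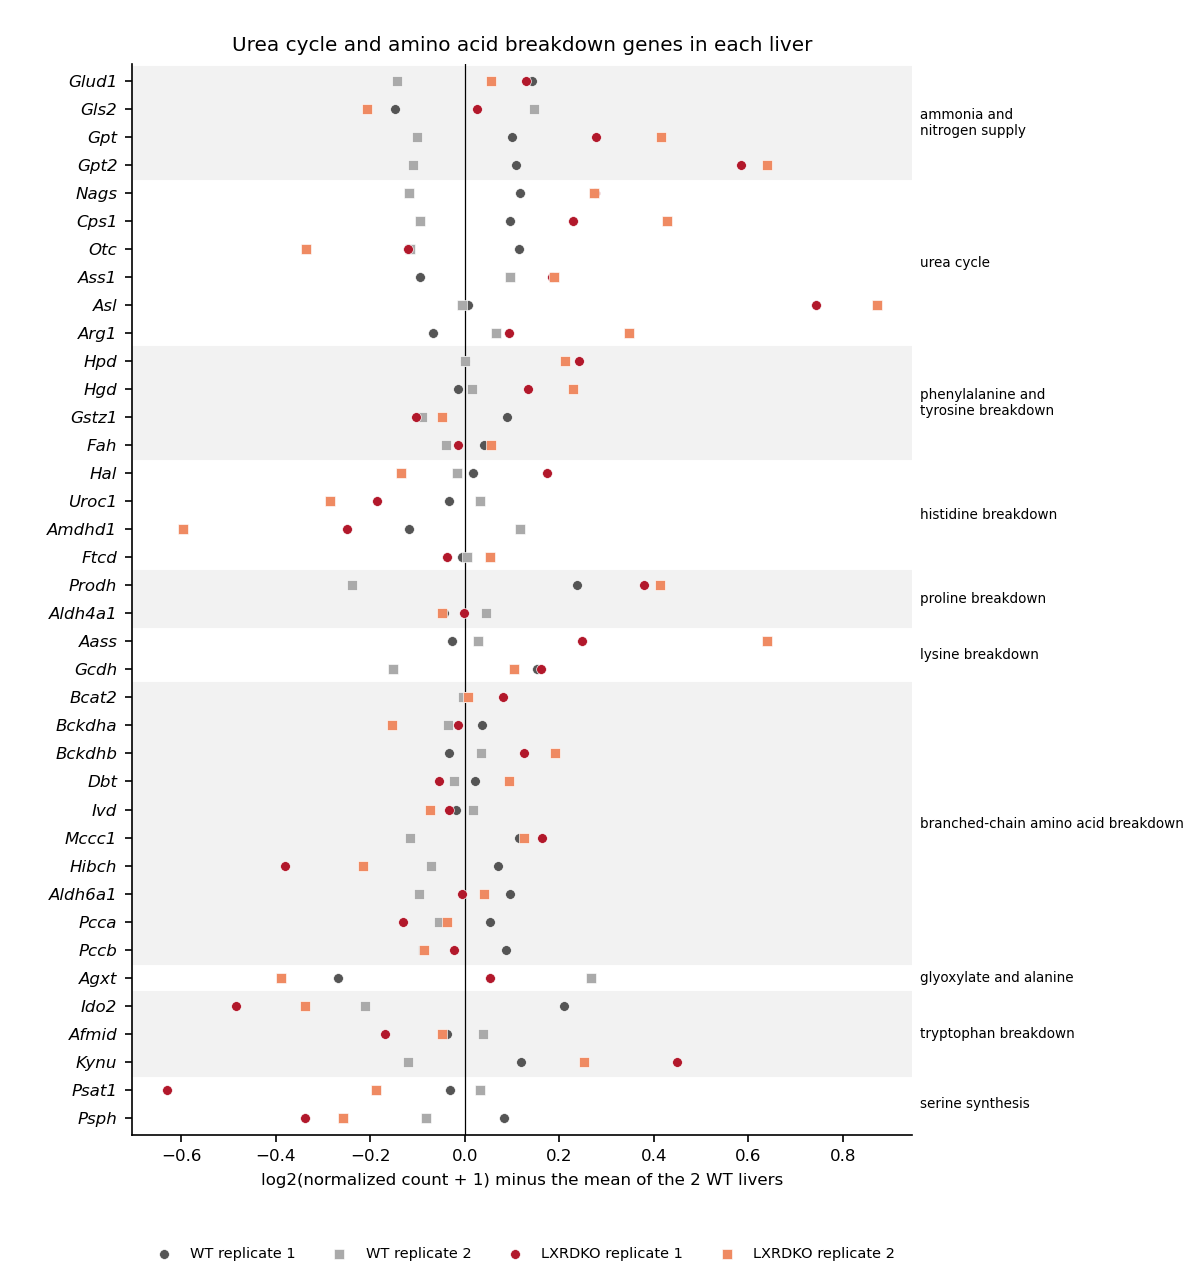
Each point is 1 liver, placed by its log2(normalized count + 1) minus the mean of the 2 WT livers, for the 38 genes that passed the filter, grouped by role from top to bottom. Dark and light grey symbols are the WT livers, red and orange symbols the LXRDKO livers, and the widest gap between genotypes is that of Asl, where the LXRDKO livers lie together far to the right of the WT livers.

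**Figure D2:**
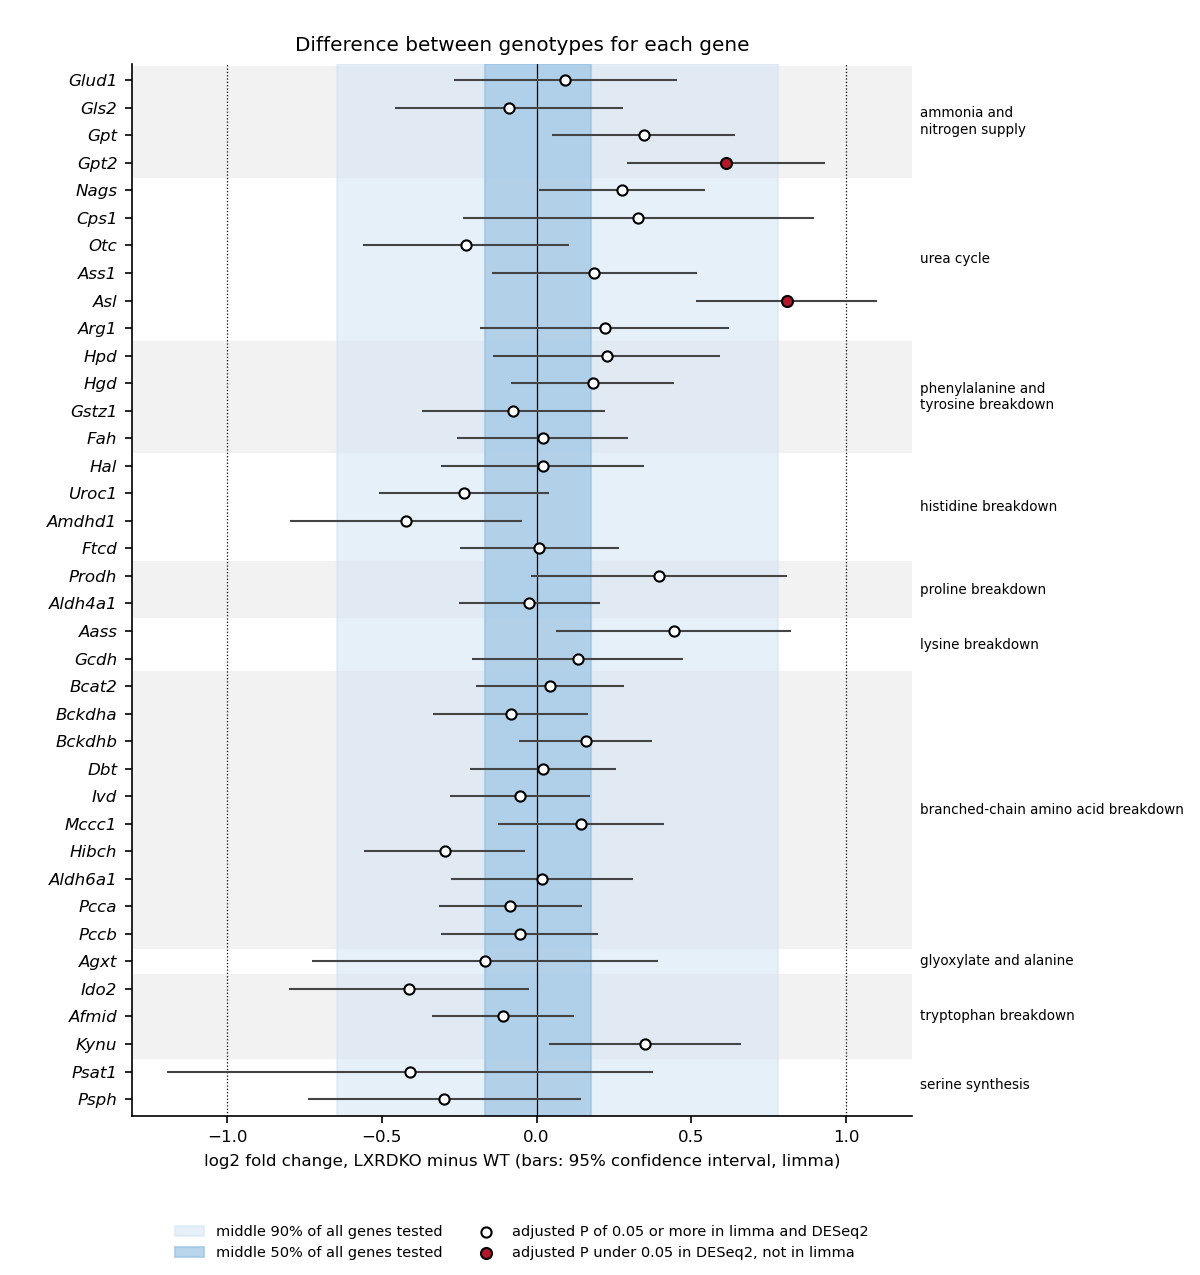
Points give the log2 fold change (LXRDKO minus WT) of the same 38 genes and bars its 95% confidence interval from limma. Blue bands hold the middle 50% and 90% of all genes tested, dotted lines mark −1 and 1, and red fill marks Asl and Gpt2, the 2 genes that DESeq2 called. Most points lie inside or near the darker band, and only Asl lies outside the lighter one.

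Of the 6 genes of the urea cycle, 5 had an LXRDKO pair entirely above the WT pair (21.7% of all genes tested did so). Otc had one entirely below it (23% of all genes tested). Asl had the largest difference. Asl encodes argininosuccinate lyase, which splits argininosuccinate into arginine and fumarate, and it lies on the minus strand of chromosome 5 (GRCm38, or mm10) between 130011258 and 130029247. It had 38156 and 37829 normalized counts in WT, against 63632 and 69500 in LXRDKO. The LXRDKO livers were separated from the WT livers by far more than the livers of either genotype differed from each other. The log2 fold change was 0.81 (standard error 0.12), a 1.75-fold higher level with a 95% confidence interval from 1.43 to 2.14. The adjusted P value was 0.0893 with limma and 6.35e-08 with DESeq2. With each liver left out in turn, the DESeq2 log2 fold change lay between 0.746 and 0.869 and the adjusted P value between 0.000604 and 0.0117. These fits were added after seeing the data. They leave 1 genotype with a single liver, whose spread is assumed to be that of the other genotype.

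The other genes of the cycle differed less. Cps1, which encodes the enzyme that fixes ammonia into carbamoyl phosphate, had 340932 and 298626 normalized counts in WT, against 374049 and 429390 in LXRDKO. The groups did not overlap, but the log2 fold change of 0.33 had a limma standard error of 0.23 (adjusted P = 0.618 with limma and 0.307 with DESeq2). Nags makes the N-acetylglutamate that switches this enzyme on, and it had 4500 and 3820 normalized counts in WT, against 5022 and 5016 in LXRDKO. That was a log2 fold change of 0.28 with a standard error of 0.11 (limma adjusted P = 0.365). An antisense gene, Gm11586, shares 443 exon bases with Nags, and between 169 and 236 normalized counts were listed for it. Ass1, for argininosuccinate synthetase, was 1.14-fold higher and Arg1, for the arginase that releases urea, 1.17-fold higher, with 95% confidence intervals from 0.905 to 1.43 and from 0.882 to 1.54. Otc joins carbamoyl phosphate to ornithine. It had 30806 and 26234 normalized counts in WT, against 26165 and 22522 in LXRDKO, so that the lowest WT liver and the highest LXRDKO liver nearly touched (log2 fold change −0.23 with a standard error of 0.13, limma adjusted P = 0.55). Single livers weighed on these smaller differences. The log2 fold change of Nags was 0.158 without WT replicate 2 and that of Ass1 0.0914 without WT replicate 1. That of Arg1 was 0.0939 without LXRDKO replicate 2 and that of Otc −0.112 without WT replicate 1. At the other end of the fits with 1 liver left out, the values were 0.394 for Nags, 0.282 for Ass1, 0.347 for Arg1 and −0.344 for Otc. Those of Cps1 ranged from 0.229 to 0.428, and each of these genes kept its sign.

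The genes were also set against each other within each liver. The log2 ratio of Asl to the geometric mean of the other 5 urea cycle genes was −0.35 and −0.29 in WT, against 0.29 and 0.37 in LXRDKO. That mean was taken on the log2 scale, and Cps1, Arg1 and Ass1 each had more counts than Asl in every liver. The log2 ratio of Cps1 to Otc was 3.47 and 3.51 in WT against 3.84 and 4.25 in LXRDKO. Both ratios were higher in the 2 LXRDKO livers. The genes of these ratios, and of those for Gpt2 with Gpt and Amdhd1 with Hal given further on, were paired with their differences known, so the ratios are descriptions without a test.

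Levels per kilobase of merged exons, which adjust roughly for the unequal length of genes, spanned a wide range within the cycle. Merged exons pool all annotated transcripts of a gene, so the order of genes with close levels can depend on the annotation. In WT livers Cps1 had the highest level of the 6, with 57566 ± 5385 normalized counts per kb (SD, n = 2). Arg1 followed with 44431 ± 2910.1, Ass1 with 26675 ± 2493, Asl with 7864 ± 47.9, Otc with 6725 ± 762 and Nags with 1466 ± 169 (SD, n = 2 each). The ranges of neighbours in this order did not overlap in WT. In LXRDKO livers the order was the same, but Asl, at 13779 ± 859 per kb, was farther from Otc, at 5740 ± 607 (SD, n = 2 each).

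**Figure D3:**
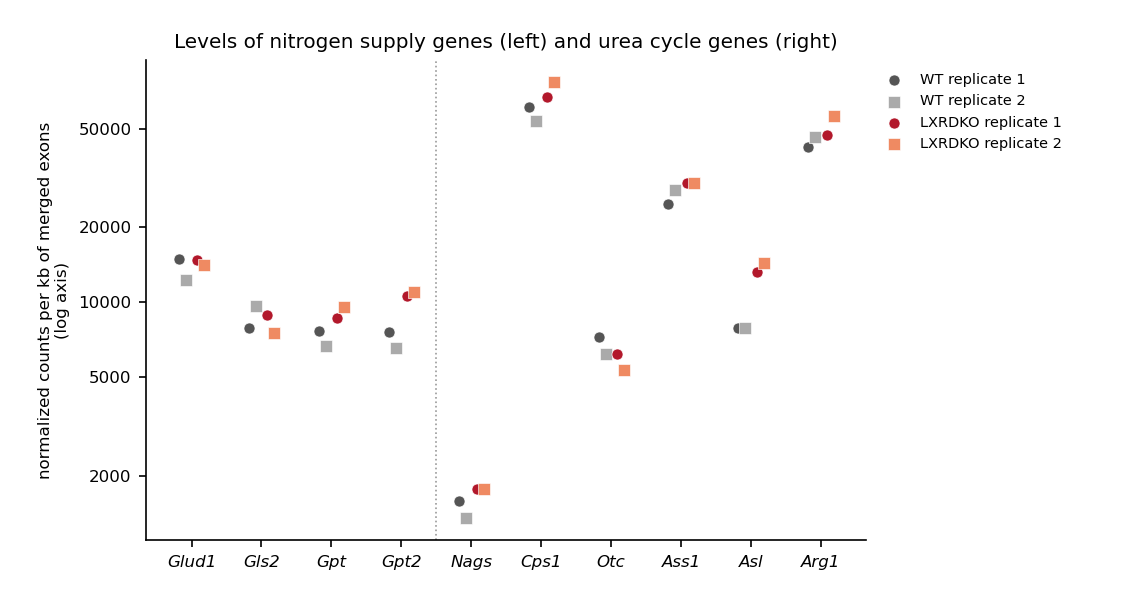
Normalized counts per kb of merged exons (log axis) in each of the 4 livers (grey for WT, red and orange for LXRDKO) for the genes that supply ammonia and amino groups (left of the dotted line) and the urea cycle genes (right). Cps1, Arg1 and Ass1 stand highest and Nags lowest in every liver, and the LXRDKO points of Gpt2 and Asl lie above the WT points.

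Among the 4 genes that feed nitrogen into the cycle, the alanine aminotransferases were higher in LXRDKO livers and the ammonia-releasing enzymes overlapped between genotypes. Gpt2 encodes the mitochondrial alanine aminotransferase and lies on the plus strand of chromosome 8 from 85492576 to 85527560. It had 42904 and 36918 normalized counts in WT, against 59693 and 61974 in LXRDKO. Both LXRDKO livers stood clear of both WT livers. The log2 fold change was 0.61 (standard error 0.13), or 1.53-fold with a 95% confidence interval from 1.22 to 1.91. Its adjusted P value was 0.154 with limma and 0.0011 with DESeq2. In the same fits with 1 liver left out, Gpt2 kept its DESeq2 call without WT replicate 1 (log2 fold change 0.713, adjusted P = 0.00339). The call was lost without WT replicate 2 (0.503, adjusted P = 0.139), LXRDKO replicate 1 (0.632, adjusted P = 0.0974) or LXRDKO replicate 2 (0.583, adjusted P = 0.172). Gpt, the cytosolic form, had 22510 and 19571 normalized counts in WT, against 25437 and 27992 in LXRDKO, a log2 fold change of 0.35 with a standard error of 0.12 (adjusted P = 0.316 with limma and 0.236 with DESeq2). The log2 ratio of Gpt2 to Gpt counts was 0.93 and 0.92 in WT against 1.23 and 1.15 in LXRDKO. Per kilobase, the genes lay at 7073 ± 750 for Gpt2 and 7154 ± 707 for Gpt in WT livers, a difference within their spread, and at 10780 ± 286 and 9084 ± 614 in LXRDKO livers (SD, n = 2 each).

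Glud1, for glutamate dehydrogenase, had 63106 and 51742 normalized counts in WT, against 62539 and 59428 in LXRDKO. Gls2, the liver glutaminase, had 27249 and 33402 in WT against 30735 and 26151 in LXRDKO. For both genes the LXRDKO livers fell within the range of the WT livers or crossed it, and the 95% confidence intervals of the fold ran from 0.831 to 1.37 for Glud1 and from 0.728 to 1.21 for Gls2.

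The promoter window of Gpt2 is shown because it is the gene of the 2 called by DESeq2 that has one in the RefSeq table used here, and those of 3 histidine genes because their measured differences diverge. This choice was made after the values were seen. RefSeq windows of 300 bases (250 before and 50 after a start, GRCm38.p6) were matched for 31 of the 39 genes. Capitals mark the letters CCAAT, the core bound by NF-Y, the half-site TGACG of the cyclic AMP response element, or the nuclear receptor half-site AGGTCA, each sought on both strands. These letters occur in 37.4%, 20.8% and 16.3% of all 32851 windows. The full DR4 element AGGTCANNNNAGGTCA, the textbook LXR site, occurs in 0.0152% of windows and in none of those of the 31 genes. A match is a string of letters and not evidence of binding.
The windows are, 5′ to 3′ on the strand of the gene, chr8:85492326-85492625 (plus) for Gpt2, chr10:93488518-93488817 (plus) for Hal, chr6:90333039-90333338 (plus) for Uroc1 and chr10:93539984-93540283 (minus) for Amdhd1.
Gpt2: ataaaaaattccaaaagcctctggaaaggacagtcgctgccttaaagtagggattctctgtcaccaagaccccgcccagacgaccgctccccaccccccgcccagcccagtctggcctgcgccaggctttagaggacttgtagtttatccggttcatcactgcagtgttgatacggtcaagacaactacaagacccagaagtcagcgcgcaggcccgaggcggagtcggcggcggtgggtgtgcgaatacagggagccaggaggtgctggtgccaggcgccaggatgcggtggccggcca
Hal: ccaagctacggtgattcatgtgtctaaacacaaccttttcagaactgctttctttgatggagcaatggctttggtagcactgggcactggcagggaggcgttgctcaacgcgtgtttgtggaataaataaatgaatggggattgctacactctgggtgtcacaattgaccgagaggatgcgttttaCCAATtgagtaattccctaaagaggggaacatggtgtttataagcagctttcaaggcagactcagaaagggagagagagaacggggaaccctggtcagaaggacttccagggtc
Uroc1: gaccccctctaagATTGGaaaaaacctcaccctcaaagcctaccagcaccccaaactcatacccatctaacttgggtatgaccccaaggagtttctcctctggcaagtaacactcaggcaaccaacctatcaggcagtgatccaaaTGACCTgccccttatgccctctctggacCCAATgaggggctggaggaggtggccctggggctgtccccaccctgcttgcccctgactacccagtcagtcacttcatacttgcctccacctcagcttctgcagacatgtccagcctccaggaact
Amdhd1: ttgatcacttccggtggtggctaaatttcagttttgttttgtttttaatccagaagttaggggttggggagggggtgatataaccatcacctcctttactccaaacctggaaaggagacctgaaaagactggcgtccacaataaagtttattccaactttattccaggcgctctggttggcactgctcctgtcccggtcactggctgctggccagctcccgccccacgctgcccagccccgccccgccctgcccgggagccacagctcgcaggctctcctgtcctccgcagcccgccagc
The windows of Gpt2 and Amdhd1 held none of these motifs, that of Hal held 1 CCAAT, and that of Uroc1 held 2 CCAAT and 1 AGGTCA on either strand.

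Histidine breakdown uses 4 enzymes in order, and the 2 in the middle were lower in both LXRDKO livers while the first and last were not separated. Hal, for the lyase that opens the route by making urocanate, had 24545 and 23978 normalized counts in WT, against 27375 and 22104 in LXRDKO (log2 fold change 0.02 with a standard error of 0.13, limma adjusted P = 0.969). Uroc1, for urocanase, had 43367 and 45372 in WT against 39001 and 36428 in LXRDKO, a log2 fold change of −0.23 with a standard error of 0.11 (limma adjusted P = 0.44). Amdhd1 encodes the next enzyme, imidazolonepropionase, and had the lowest log2 fold change of the 38 genes. It had 12252 and 14421 normalized counts in WT, against 11179 and 8797 in LXRDKO, a log2 fold change of −0.42 with a standard error of 0.15 (adjusted P = 0.328 with limma and 0.234 with DESeq2). The fold change ranged from −0.60 to −0.25 with each liver left out in turn. Ftcd, whose enzyme hands the last one-carbon group to folate, had 32170 and 32403 in WT against 31483 and 33523 in LXRDKO, with a 95% confidence interval of the fold from 0.842 to 1.2. Hal and Amdhd1 are close on chromosome 10, Hal on the plus strand from 93488768 to 93519304 and Amdhd1 on the minus strand from 93523338 to 93540033. The log2 ratio of Amdhd1 to Hal was −1.002 and −0.7335 in WT and −1.29 and −1.33 in LXRDKO.

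Along the route from phenylalanine and tyrosine, differences were small. Hpd, which makes homogentisate, had 121262 and 121249 normalized counts in WT, against 143408 and 140432 in LXRDKO. The LXRDKO livers were clearly higher than a WT pair that hardly differed, yet the log2 fold change of 0.23 reached an adjusted P of only 0.591 in limma, which moderates the spread of each gene toward that of other genes of similar level, and 0.479 with DESeq2. Hgd, the next step, was 1.13-fold higher with no overlap (32331 and 32993 in WT, 35830 and 38260 in LXRDKO). Gstz1 and Fah, for the last steps to fumarate and acetoacetate, overlapped between genotypes, with log2 fold changes of −0.07 and 0.02. Upstream, Tat, the aminotransferase that commits tyrosine to this route, had 69293 and 71976 normalized counts in WT, against 95645 and 127585 in LXRDKO, a log2 fold change of 0.65 (adjusted P = 0.242 with limma and 0.00675 with DESeq2). Qdpr, which regenerates the cofactor of phenylalanine hydroxylase, was lower, with 21855 and 22329 in WT against 15394 and 15755 in LXRDKO (log2 fold change −0.50, adjusted P = 0.127 with limma and 0.00245 with DESeq2).

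Tryptophan breakdown held differences in both directions. Kynu, for kynureninase, had 9904 and 8387 normalized counts in WT, against 12438 and 10861 in LXRDKO, a log2 fold change of 0.35 with a standard error of 0.12 (limma adjusted P = 0.327). Ido2, a dioxygenase able to start the route, had 8729 and 6518 in WT against 5391 and 5966 in LXRDKO, a log2 fold change of −0.41 with a standard error of 0.16 (limma adjusted P = 0.352). Neither gene overlapped between groups. The value for Ido2 came to −0.20 without WT replicate 1 but to −0.62 without WT replicate 2. Afmid, for the formamidase between these steps, had a log2 fold change of −0.11, and its exons share 1566 bases with Gm20708 on the same strand and 83 with Tk1 on the opposite strand. Outside the 39 genes, Tdo2, for the main hepatic enzyme that starts the route, had 105294 and 107706 normalized counts in WT, against 174106 and 178312 in LXRDKO (log2 fold change 0.73, adjusted P = 0.151 with limma and 3.92e-07 with DESeq2). Acmsd, whose enzyme diverts the route away from NAD synthesis, had 1376 and 1597 in WT against 2927 and 2514 in LXRDKO (log2 fold change 0.87, adjusted P = 0.0893 with limma and 2.84e-05 with DESeq2).

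For proline and lysine the first enzyme of each route was higher in both LXRDKO livers and the later enzyme overlapped. Prodh, for proline dehydrogenase, had 14452 and 10384 normalized counts in WT, against 15932 and 16321 in LXRDKO, a log2 fold change of 0.40 with a standard error of 0.17 (limma adjusted P = 0.394). This came to 0.16 without WT replicate 2 but to 0.64 without WT replicate 1, and DESeq2 called Prodh only in the latter case, where WT replicate 2 was the single WT liver. WT replicate 2 was also the liver with lower pericentral markers, and the part of that in the value for Prodh was not tested. Aldh4a1, which completes the conversion to glutamate, had a log2 fold change of −0.02 with a 95% confidence interval of the fold from 0.84 to 1.15. Aass, for the enzyme that joins lysine to 2-oxoglutarate, had 24064 and 25005 in WT against 29120 and 38229 in LXRDKO (log2 fold change 0.44, standard error 0.15, adjusted P = 0.316 with limma and 0.133 with DESeq2). Its difference came to 0.25 without LXRDKO replicate 2 but to 0.64 without LXRDKO replicate 1. Gcdh, for glutaryl-CoA dehydrogenase further down, had a log2 fold change of 0.13.

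The 10 genes of branched-chain amino acid breakdown differed little between genotypes. Their median log2 fold change was −0.02, with a median absolute value of 0.07, against 0.173 over all genes tested. Hibch, which acts on valine, differed most, with 4712 and 4269 normalized counts in WT, against 3447 and 3864 in LXRDKO, and the groups did not overlap. Its log2 fold change was −0.30 with a standard error of 0.10 (adjusted P = 0.325 with limma and 0.416 with DESeq2). The subunits of the branched-chain ketoacid dehydrogenase, which commits these amino acids to oxidation, had log2 fold changes of −0.08 for Bckdha, 0.16 for Bckdhb and 0.02 for Dbt. Their 95% confidence intervals of the fold lay between 0.793 and 1.3. Ivd and Mccc1, for leucine, had values of −0.05 and 0.14. Aldh6a1, for valine, had a value of 0.02, and the subunits of propionyl-CoA carboxylase had values of −0.08 for Pcca and −0.05 for Pccb. Bcat2, for the aminotransferase that hepatocytes are known to express at low levels, had 1414 and 1406 normalized counts in WT, against 1492 and 1418 in LXRDKO. It shares 622 exon bases with the antisense gene 0610005C13Rik, which had between 8776 and 15350 normalized counts and was lower in both LXRDKO livers, and the sources used here do not state whether counting used strand. In all, 11 of the 39 genes share exon bases with another gene, and neither Asl nor Gpt2 is among them.

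Agxt, whose enzyme removes glyoxylate with alanine as the amino donor, varied more within each genotype than between them. It had 15504 and 22451 normalized counts in WT, against 19375 and 14247 in LXRDKO, a log2 fold change of −0.17 with a standard error of 0.23 (limma adjusted P = 0.817). Its value came to −0.43 without WT replicate 1 but to 0.10 without WT replicate 2.

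Serine synthesis, included as the counterpart of these breakdown routes, was at the low end in all 4 livers. Phgdh, for the first enzyme, had 3 and 3 reads in WT and 0 and 2 reads in LXRDKO, all at or under a floor of 3 reads, so no fold is given. Psat1 had 47.9 and 50.1 normalized counts in WT, against 31.3 and 42.9 in LXRDKO, a log2 fold change of −0.41 whose 95% confidence interval reached from −1.19 to 0.38 (adjusted P = 0.655, limma). Psph had 242 and 216 in WT against 180 and 191 in LXRDKO, a log2 fold change of −0.30 with a standard error of 0.18 (limma adjusted P = 0.553). Its exons overlap by 452 bases with Cct6a on the opposite strand, which had between 6898 and 7654 normalized counts. Neither Psat1 nor Psph overlapped between groups. The summed macrophage and Kupffer cell markers were also lower in both LXRDKO livers, although 4 of the 10 overlapped between genotypes. The part of these cells in the values of these weakly expressed genes was not tested.

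Genes of the same pathways outside the 39 were examined in 3 lists. Of 42 further enzymes of amino acid breakdown, 22 had higher and 20 lower means in LXRDKO, with a median log2 fold change of 0.07. Limma called 1 of them, Got1, for the cytosolic aspartate aminotransferase, with a log2 fold change of 1.54, and 13 had an unadjusted P value under 0.05 (13.3% of all genes tested did). DESeq2 called 5 of the 42 higher (1.56% of all genes), which besides Got1, Tat, Tdo2 and Acmsd included Sds, for serine dehydratase. Sds had 10837 and 18030 normalized counts in WT, against 32104 and 26549 in LXRDKO (log2 fold change 1.06, adjusted P = 0.189 with limma and 0.00118 with DESeq2). DESeq2 called 2 of the 42 lower (2.03% of all genes), Qdpr and Aspg, the latter for an asparaginase, with 17775 and 23601 normalized counts in WT, against 12477 and 10580 in LXRDKO (log2 fold change −0.83, adjusted P = 0.141 with limma and 0.000396 with DESeq2). Of 18 tested partners of the cycle and amino acid transporters, DESeq2 called 1 (3.59% of all genes were called in either direction), Slc25a15, the mitochondrial carrier that exchanges ornithine and citrulline, with 15752 and 13492 normalized counts in WT, against 20675 and 24765 in LXRDKO (log2 fold change 0.63, adjusted P = 0.155 with limma and 0.00438 with DESeq2). This list was even, with 9 higher and 9 lower means and a median of 0.02. Of 19 regulators, DESeq2 called 2, Hnf4a (log2 fold change 0.60, adjusted P = 0.0115) and Sesn2 (log2 fold change 0.69, adjusted P = 0.0286), against 1.56% of all genes called higher. The study itself gave Slc25a15, Got1 and Hnf4a as examples from these samples, so their values here are not independent of that choice. Limma called none of the 18 partners and transporters and none of the 19 regulators, of which 6 and 4 had an unadjusted P value under 0.05, against 13.3% of all genes tested.

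**Figure D4:**
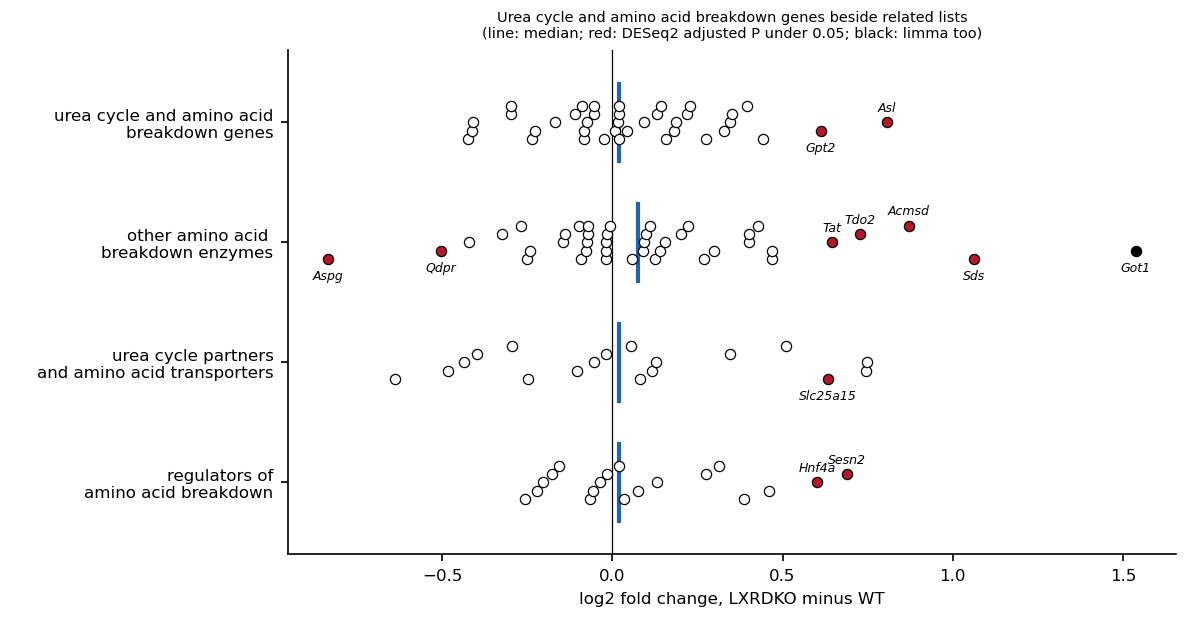
Each point is a gene, placed by its log2 fold change (LXRDKO minus WT), in the 38 urea cycle and amino acid breakdown genes and 3 related lists, with the median of each list as a blue line. Red points passed an adjusted P value of 0.05 with DESeq2 and the black point, Got1, also with limma. All 4 medians lie close to 0, and the called genes lie apart from them, Aspg and Qdpr on the left and the others on the right.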

How the data were processed

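RNA-Seq of liver was analysed for 2 WT and 2 LXRDKO samples, grouped by their labels, and the ATAC-Seq samples were not analysed here. Per the labels and the study's methods, mRNA-captured stranded libraries were aligned by the authors to mm10 with STAR 2.6.0c. The deposited signal values are read counts per gene that the authors divided by DESeq2 size factors. The counting tool, its use of strand and the annotation release are not given in the sources used here. Reads were recovered from the smallest step of each library, and all values came out whole within a tolerance of 0.01.

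Genes averaging 10 or more normalized counts were tested on the scale log2(normalized count + 1), which understates changes of low genes, with limma 3.58.1 (trend, two-sided, Benjamini-Hochberg adjustment over 15578 genes, threshold 0.05) in R 4.3.3. As alternatives, the recovered reads were tested with DESeq2 1.42.0 and edgeR 4.0.16, and 15797 genes had a DESeq2 adjusted P value. Other pseudocounts, filters, scalings, a replicate block and leaving out each liver were also tried. The scripts were tested on simulated data. Values per liver were given for each of the 39 genes called by limma or DESeq2 and for the one with the largest absolute log2 fold change of each role, other genes without overlap between genotypes could be added, and the rest were summarised, with a few values added after they were seen. Related lists name up to 8 called genes each, with Aadat and Dhtkd1 added after their values were seen. The genes and lists were chosen with earlier results of these data known. A floor of 3 reads was used for counts near 0, and it covers counting error only. Exon lengths and positions come from the GRCm38 annotation, and promoter windows from RefSeq.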

Additional observations from a re-analysis of the deposited data

How the results depend on the processing

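With 2 livers per genotype the number of calls depended strongly on the test. Limma called 50 of all genes at an adjusted P value of 0.05, against 25 when only genes averaging 50 or more normalized counts were tested, 1 without the trend, 567 with DESeq2 and from 2 to 265 with 1 liver left out. The cause was not tested. Of the 38 genes, 2 were called higher with DESeq2 and none in the other settings tried on all 4 livers. With 1 liver left out, a check added after seeing the data, DESeq2 called from 1 to 3 of them. Every fit with 1 liver left out, by either tool, has a single liver in 1 genotype, which is assumed to vary like the other genotype, so it is a weak check of stability.

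Replicates sharing a number did not deviate together (r = 0.00312 across 15578 genes), so the numbers do not pair the livers. A replicate block gave 90 calls over all genes and none among the 38.

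Scaling by the library total moved the median log2 fold change of all genes from −0.0046 to 0.0497 and that of the 38 genes to 0.0744. Under it the values of Aldh4a1 (0.0307) and Ivd (0.00102) changed sign. With 1 liver left out, the sign also changed for genes near 0. The log2 fold changes ranged from −0.0498 to 0.237 for Glud1, −0.237 to 0.0571 for Gls2, −0.165 to 0.0155 for Gstz1, −0.02 to 0.0598 for Fah, −0.134 to 0.174 for Hal and −0.0364 to 0.0542 for Ftcd. They ranged from −0.0685 to 0.0209 for Aldh4a1, −0.0194 to 0.285 for Gcdh, −0.0543 to 0.094 for Dbt, −0.0787 to 0.114 for Aldh6a1, −0.142 to 0.0326 for Pccb and −0.434 to 0.0997 for Agxt. Differences smaller than the spread of these livers could not be detected, and some larger ones, such as that of Hpd, were not called either.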
